A study of Gallus gallus with 6 samples.

Results

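The frontonasal prominence (FNP) and the mandibular prominence (MNP) of the chick embryo were compared within each genotype, and the difference (FNP minus MNP) was set side by side in control and in *talpid2* embryos. The 4 libraries that enter these differences, 1 for each prominence and genotype, are 4 of the 6 libraries of the series. The other 2 are of the maxillary prominence (MXP) and were used for the spread and as a further level. All 10337 listed genes were compared, and the 4 libraries were chosen by their labels alone. Control embryos are labelled as such with no further genotype, and *talpid2* embryos carry an autosomal recessive mutation that arose in the chicken, from matings of carriers. All embryos were at HH25, an embryonic stage of the chicken. Each library held the prominences of 8 embryos of 1 genotype, combined before sequencing, so a group is 1 library and the values carry no spread between embryos. The design text can be read as taking the 3 prominences of a genotype from 1 set of 8 embryos, though the labels of the samples do not say so. Age in days, sex and the carrier state of the controls are not given in the sources used here.

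The facial prominences are buds of neural crest mesenchyme covered by ectoderm. The FNP grows over the forebrain, lies outside the DLX patterning of the arches, carries the nasal placodes and is marked by ALX transcription factors. The MNP is the lower part of the first pharyngeal arch, where endothelin signalling through its receptor switches on *DLX5* and *DLX6* and then *HAND2*, and where myoblasts of the jaw muscles gather. A disrupted primary cilium, as in *talpid2*, changes how cells read the Hedgehog signal.

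The authors' values are log2 levels in which the median of each gene over the 6 libraries is 0. A difference of 1 is therefore 2-fold, and levels cannot be compared between genes. For 4829 genes (46.7%) the reads behind the values could be recovered, with a median of 228 reads in the highest library. Relative depth ran from 0.949 to 1.204 of the median library. In bulk libraries fewer cells of a type and less RNA per cell cannot be told apart. The label check rested on *ALX1*, *ALX4*, *HAND2* and *DLX5*. *ALX1*, *HAND2* and *DLX5* lay apart by more than 2-fold on the side their labels imply in both genotypes, and *ALX4* lay on that side but under 2-fold. *C2CD3*, the ciliary gene that the study proposes as the *talpid2* locus, had log2 levels of 0.11 and 0.07 in the control FNP and MNP. In the *talpid2* ones it had -0.07 and -0.08. The study names a small deletion in this gene as the likely cause and does not exclude a missense change in it, alone or in combination. Both are changes of sequence, so the level of *C2CD3* does not check the labels.

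Both genotypes showed the same main split between FNP and MNP. In control, 310 genes were at least 2-fold higher in the FNP and 368 in the MNP. In *talpid2* these numbers were 347 and 369. At least 2-fold apart in the same direction in both genotypes were 207 genes with FNP higher (2.0% of all genes) and 259 with MNP higher (2.51%). These 466 genes are 68.7% of the genes that passed 2-fold in control (6.56% of all genes) and 65.1% of those that passed in *talpid2* (6.93%). Across all genes, which are not independent replicates and share libraries and depth, the control and *talpid2* differences had a Pearson's r of 0.83. The median difference of all genes was near 0 in both genotypes, at -0.0003 in control and -0.0019 in *talpid2*. The 2-fold limit passes through a dense region of genes, since the smaller of both differences was 1.0015 for the nearest gene inside the limit and 0.997 for the nearest outside it among genes with FNP higher.

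**Figure D1:**
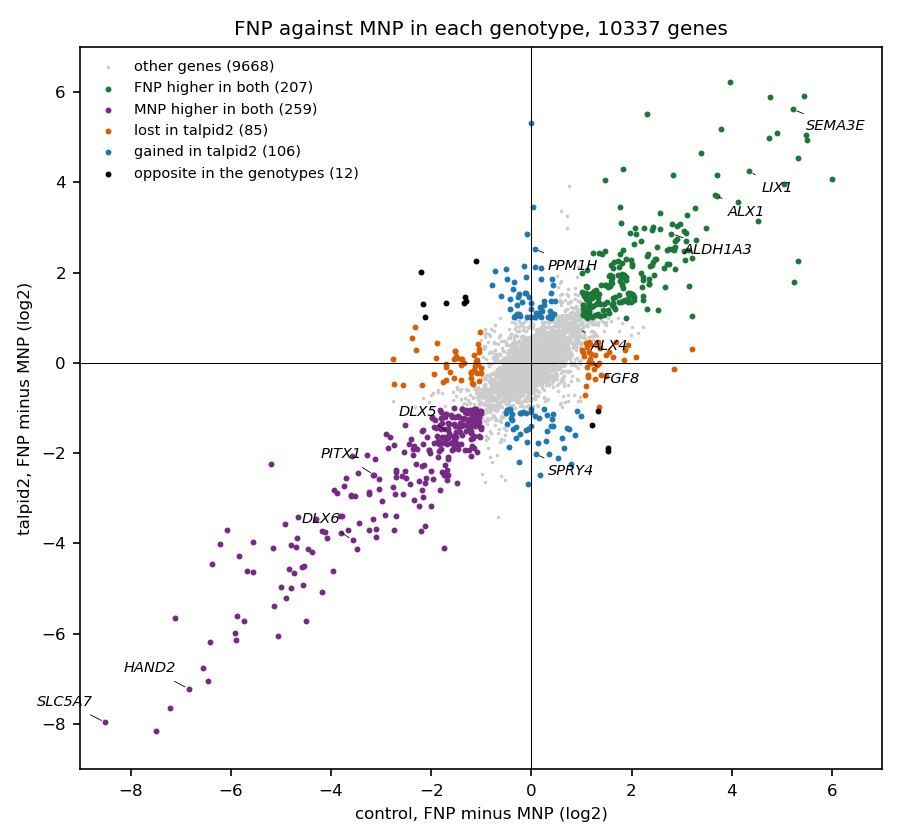
Each point is 1 of 10337 genes, with FNP minus MNP in control on the x axis and in *talpid2* on the y axis, both in log2 units. Genes at least 2-fold apart in both genotypes are green (207, FNP higher) or purple (259, MNP higher), genes that lose or gain the difference in *talpid2* are orange or blue, and 12 genes with opposite differences are black.

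The test across all 6 libraries used limma with prominence and genotype as terms, so that the 2 genotypes stand in for replicates of a prominence and p-values measure the spread between these libraries, not between embryos. It called 543 genes higher in the FNP (5.25% of 10337) and 508 higher in the MNP (4.91%) at an adjusted p of at most 0.05. Of the 466 genes that were 2-fold apart in both genotypes, 415 were called. The Audic-Claverie test between the FNP and MNP libraries of 1 genotype covers counting error only. It passed 24.4% of the 4829 genes with recovered reads in control and 22.7% in *talpid2*, and 264 of the 296 shared genes with recovered reads in both. The shared genes were chosen by these same differences in these libraries, so the 415 and the 264 are descriptions, not support. The count of limma calls is taken up next. The count rests on the libraries used, and without the control FNP, MXP or MNP library it fell from 1051 to 343, 576 or 277, and without the *talpid2* ones to 367, 576 or 212. In all 6 of these fits 59 genes stayed called as higher in the FNP and 83 as higher in the MNP. The full fit has 2 residual degrees of freedom and each of these fits has fewer, so a lost call here and below need not rest on the library left out. Without 1 MXP library the other does not inform the difference, so both such fits equal that of the FNP and MNP libraries alone. *GAPDH* itself was 0.43 higher in the FNP in control and 0.34 higher in *talpid2*, and with *GAPDH* as the reference the calls became 403 for the FNP against 6703 for the MNP. Another scaling of whole libraries moves every difference below by the same amount, which is 0.38 on average over both genotypes for *GAPDH*.

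Of the transcription factors of frontonasal mesenchyme, 3 of 5 measured genes were called as higher in the FNP and none as higher in the MNP, beside the 5.25% of all genes. The lists and their members were chosen with earlier results of these data known, so the shares here and below are descriptions. *ALX1*, *ALX4*, *HAND2* and *DLX5* also served the label check. The list's median difference was 1.58 in control and 1.71 in *talpid2*. *ALX1* (ENSGALG00000011144, chromosome 1, 43729301 to 43749274 in the authors' coordinates, whose assembly is not named) had log2 levels of 1.94 and 2.16 in the control and *talpid2* FNP libraries, MXP levels of -0.08 and 0.08, and MNP levels of -1.73 and -1.56. The FNP levels lie far above both others, and the MXP holds a middle level in both genotypes. The mean FNP minus MNP was 3.70 ± 0.06 (SE, 6 libraries; limma adjusted p = 0.000908). *TFAP2A* and *TFAP2B*, AP-2 factors of neural crest and ectoderm, were higher in the FNP by 1.64 ± 0.12 and 2.05 ± 0.17 (limma adjusted p 0.00959 and 0.0125). Leaving out either MNP library raised these p-values to as much as 0.0671. *ALX4*, a factor related to *ALX1*, stood at 0.90 in the control FNP against -0.04 in the MNP and at 0.80 against 0.04 in *talpid2*, and did not pass (0.85 ± 0.16, adjusted p = 0.0567 in limma). *TBX22*, known for its part in the palate, was highest in the MXP, at 1.56 and 1.47, and had -0.16 and 0.16 in the FNP libraries and -0.37 and -0.42 in the MNP libraries.

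Of 7 measured genes of the nasal placode and olfactory epithelium, 3 were called as higher in the FNP, beside 5.25% of all genes. None was called as higher in the MNP, beside 4.91%. The list's median was 1.33 in control and 1.09 in *talpid2*. *EYA2* and *EYA1*, placodal transcriptional cofactors, and *ALDH1A3*, a retinoic acid synthase of the nasal epithelium, passed in limma. *EYA2* had control and *talpid2* FNP levels of 2.20 and 1.99, MXP levels of 0.11 and -0.11, and MNP levels of -0.66 and -0.58, a mean difference of 2.72 ± 0.10 (limma adjusted p = 0.0034). *ALDH1A3* differed by 2.83 ± 0.18 (adjusted p = 0.00815 in limma) with levels of 2.78 and 2.88 in the FNP libraries and at most 0.01 in the others. *EYA1* differed by 1.21 ± 0.09 (limma adjusted p = 0.00958). Without an FNP library *EYA1* reached 0.0609, and without an MNP library *ALDH1A3* reached 0.0518. *GNRH1*, the gonadotropin-releasing hormone of neurons born in the nasal placode, had 28.8 recovered reads in the control FNP, 7.10 in the control MNP, 6.36 in the *talpid2* FNP and 6.14 in the *talpid2* MNP. Its control difference of 2.09 (95% counting interval 0.90 to 3.56) was 0.14 (-1.81 to 1.99) in *talpid2*, and the exact conditional test did not separate them (adjusted p = 0.626). *SOX2*, also expressed in placodes, was not called. *EMX2*, a further member of the list, lay on the MNP side in control, with 25.6 reads in the FNP against 77.4 in the MNP. Its difference was -1.52 (95% counting interval -2.20 to -0.84) in control and 0.26 (-0.77 to 1.28) in *talpid2*. It was not called by limma, and the exact conditional test did not separate the genotypes (adjusted p = 0.146).

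The 15 named genes with the largest shared excess in the FNP all differed by at least 3.14 in both genotypes. Of them 2, *ALX1* and *LIX1*, were within the authors' limits on values in all 6 libraries. The 15 were chosen by this difference, so their values are a description with no test. By name these are the transcription factors *DMBX1*, *SIX6*, *TFAP2E*, *GATA2*, *GATA3* and *ALX1*, the secreted proteins *SEMA3E*, *GDF10* and *SST*, the collagen *COL8A1*, the adaptor *GRB14*, and *IL17REL*, *LIX1*, *ZPLD1* and *PLAC9*. *SEMA3E*, a semaphorin that guides axons and vessels, had log2 levels of 4.09 and 3.95 in the control and *talpid2* FNP against -1.14 and -1.66 in the MNP, with MXP levels of 0.20 and -0.20 (a mean difference of 5.42). *TFAP2E*, an AP-2 factor known in mouse from the olfactory system, had 624.4 recovered reads in the control FNP against 14.4 in the MNP, and 313.5 against 10.8 in *talpid2*. *SIX6*, a homeobox gene of the eye field and pituitary, had 48.9 reads in the control FNP and 30.3 in the *talpid2* FNP. It lay at the floor in the MNP and MXP libraries. Values under 1 were set to 1, a floor counted here as 0 reads. Since 1 read had a scaled value of 0.866 in the control MNP and 0.909 in the control FNP, the floor there can hold 1 read. Counted as 0, the lower 95% counting limit of the *SIX6* log2 ratio of FNP to MNP was 3.75 in control and 3.02 in *talpid2*. *DMBX1*, a homeobox gene of the anterior brain, had 47.5 reads in the control FNP with the MNP at the floor, a lower limit of 3.72. In *talpid2* it had 56.6 reads in the FNP against 1 in the MNP, a log2 ratio of 5.91 (95% counting interval 3.39 to 11.25).

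In the MNP the ventral arch genes stood out. Of 9 measured genes of the mandibular and ventral arch list, 5 were called as higher in the MNP, beside 4.91% of all genes, and 1 as higher in the FNP. The list's median was -2.17 in control and -1.54 in *talpid2*. *HAND2* (ENSGALG00000010757, chromosome 4, 44835554 to 44939186), the transcription factor of the distal lower jaw, had log2 levels of 6.70 and 6.91 in the control and *talpid2* MNP, FNP levels of -0.14 and -0.32, and MXP levels of 0.14 and -0.53. It separates the MNP from both other prominences, with a mean FNP minus MNP of -7.03 ± 0.23 (limma adjusted p = 0.00262). *DLX5* and *DLX6*, neighbours on chromosome 2 (24415562 to 24417820 and 24407053 to 24410604) and the targets of endothelin signalling in the arch, differed unequally in size. *DLX6* had 3.41 in the control MNP and 3.63 in the *talpid2* MNP and between -0.30 and 0.04 in the 4 other libraries (-3.75 ± 0.11, limma adjusted p = 0.00237). *DLX5* had 1.48 and 1.69 in the MNP and between -0.54 and 0.15 elsewhere (-1.59 ± 0.07, adjusted p = 0.00496 in limma). For both genes the MXP levels lay with those of the FNP.

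*GSC*, a homeobox gene downstream of endothelin signalling, and *PITX1*, a homeobox gene of the mandibular mesenchyme and oral ectoderm, followed the same side. *GSC* had MNP levels of 2.43 and 2.39, MXP levels of -0.06 and 0.06 and FNP levels of -1.09 and -0.54 (-3.23 ± 0.16, limma adjusted p = 0.00571). *PITX1* had 2.73 and 2.89 in the MNP against -0.41 and 0.41 in the FNP (-2.81 ± 0.20, limma adjusted p = 0.00951), and without either MNP library its adjusted p rose to as much as 0.0567. *MEF2C*, a muscle and arch factor, had 20.5 reads in the control MNP and 2.08 in the *talpid2* MNP, with 4.36 and 4.86 in the FNP libraries. Its log2 difference was -2.17 (95% counting interval -4.32 to -0.75) in control and 1.31 (-1.20 to 4.80) in *talpid2*, and the exact conditional test did not separate them (adjusted p = 0.291). *ISL1*, a LIM homeobox gene of the mandibular arch, was not called. It had 5.58 reads in the control FNP against 9.7 in the MNP, and 16.3 against 4.2 in *talpid2*. Its difference was -0.73 (95% counting interval -2.41 to 0.94) in control and 2.04 (0.46 to 4.13), toward the FNP, in *talpid2*. The exact conditional test did not separate them (adjusted p = 0.316). *GBX2*, whose values are given below, was not called by limma either. *EDNRA*, the endothelin receptor of the mesenchyme, was the gene called as higher in the FNP, by 0.96 ± 0.09 (adjusted p = 0.0152 in limma). *EDN3*, a ligand, was 1.09 ± 0.05 lower in the FNP (limma adjusted p = 0.00556). *EDNRB*, another endothelin receptor, was lower in the FNP by 1.10 ± 0.12 (limma adjusted p = 0.0194). *EDN3* lost its call without the *talpid2* MNP (adjusted p = 0.0551 in limma), *EDNRA* without any 1 of the FNP and MNP libraries (up to 0.106), and *EDNRB* without any 1 of the MXP and MNP libraries (up to 0.112).

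Another group was low in the FNP but shared by the MXP and MNP. Of 11 measured genes of the whole first arch list, 4 were called as higher in the MNP (beside 4.91% of all genes) and none as higher in the FNP (beside 5.25%). *DLX1*, a homeobox gene of the upper and lower arch, had FNP levels of -5.95 and -6.09, MXP levels of 0.57 and 0.73 and MNP levels of -0.06 and 0.06 (-6.02 ± 0.10, limma adjusted p = 0.000908). *LHX6*, a LIM homeobox gene of the oral mesenchyme, had FNP levels of -3.35 and -2.74, with 0.99 and 1.19 in the MXP and -0.11 and 0.11 for the MNP (-3.05 ± 0.13, limma adjusted p = 0.00443). *PRRX1* and *MEIS1*, homeobox genes of limb and facial mesenchyme, were lower in the FNP by 1.42 ± 0.17 and 1.56 ± 0.13 (adjusted p 0.023 and 0.0125 in limma), and lost the call without either MNP library, *PRRX1* also without either MXP library, with adjusted p-values of up to 0.116 and 0.0655. *LHX8*, *MSX1*, *MSX2*, *PRRX2* and *MEIS2* were among the genes not called.

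**Figure D2:**
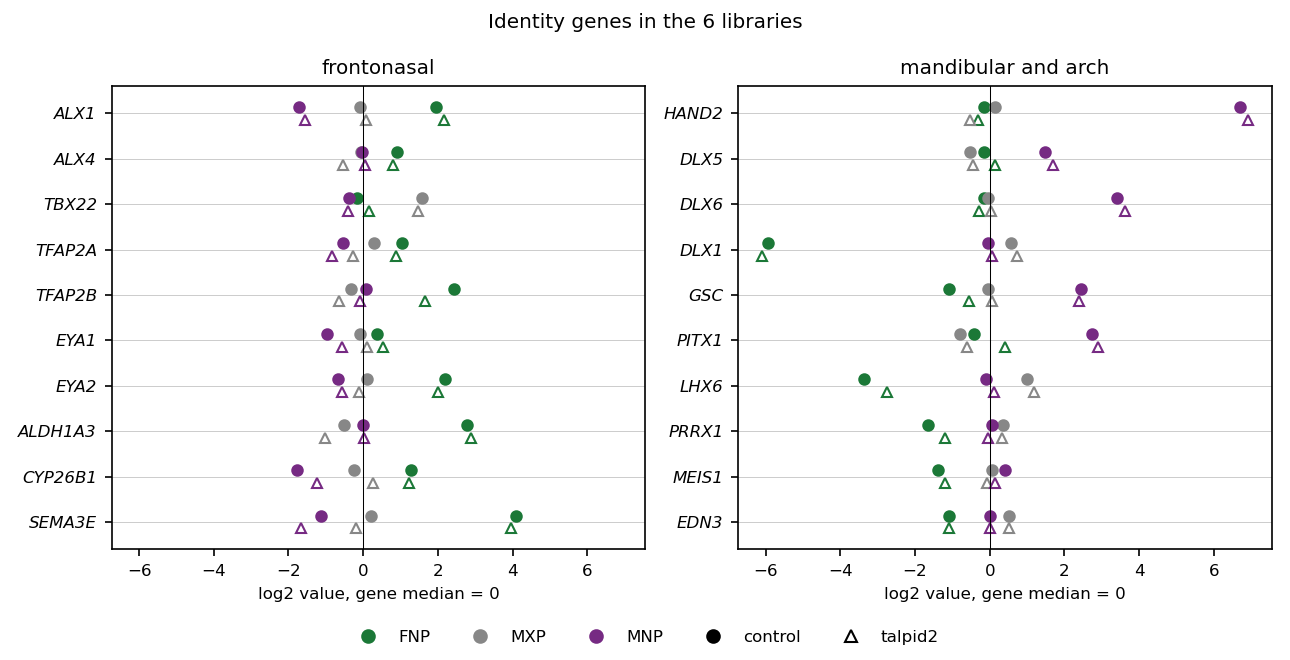
Log2 levels (x axis, gene median 0) of 10 frontonasal and 10 mandibular and arch genes in the 6 libraries, with prominences in colour, control as filled circles and *talpid2* as open triangles. The control and *talpid2* symbols of a prominence lie close together, the MXP sits with the FNP for *HAND2*, *DLX5* and *DLX6*, and it sits with the MNP for *DLX1* and *PRRX1*.

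The 15 named genes with the largest shared excess in the MNP all differed by at least 4.52 in both genotypes. They were chosen by this difference, so their values are a description with no test, and none was within the limits in all 6 libraries. They are *HAND2*, the homeobox genes *DLX1* and *TLX1*, the factor *SIM2*, the signals and receptors *ASIP*, *NTN1* and *GRPR*, the choline transporter *SLC5A7*, the matrix protein *ABI3BP*, and the muscle genes *PDLIM3*, *MYH1D*, *MYH1F*, *MYL10*, *TNNT2* and *TNNI1*. *MYH1D* and *MYH1F* are adjacent myosin heavy chain genes of a near-identical family, so reads between them are uncertain. *SLC5A7*, which takes up choline in cholinergic neurons, had the largest difference of these 15, with MNP levels of 6.23 and 6.29, MXP levels of -0.06 and 0.06 and FNP levels of -2.27 and -1.68 (a mean difference of -8.24). *SIM2*, a bHLH-PAS factor, had 378.9 reads in the control MNP against 6 in the FNP and 390.7 against 5.76 in *talpid2*, and its MXP log2 levels of -0.06 and 0.06 lay beside those of the MNP, at 0.06 and 0.36. *GRPR*, the receptor of gastrin-releasing peptide, had 216.3 reads in the control MNP against 2.36 in the FNP, and 140.2 against 1 in *talpid2* (log2 ratios of -6.45, with a 95% counting interval of -9.74 to -4.81, and -7.04, with -12.35 to -4.54). *NTN1*, an axon guidance protein, had 40.9 and 40.8 reads in the MNP and lay at the floor in both FNP libraries. With the floor counted as 0 reads, the upper 95% counting limit of its log2 ratio was -3.34 in control and -3.32 in *talpid2*.

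Muscle genes had the largest share of calls among the 22 lists. Of 15 measured skeletal muscle genes, 12 were called as higher in the MNP (beside 4.91% of all genes) and none as higher in the FNP (beside 5.25%). In both genotypes 13 were at least 2-fold higher in the MNP, beside 2.51% of all genes. The median difference was -3.67 in control and -3.41 in *talpid2*, against medians near 0 over all genes. *MYOD1*, the myogenic determination factor, had MNP levels of 4.33 and 4.27, FNP levels of -0.14 and 0.14 and MXP levels of -1.15 and -1.73 (-4.30 ± 0.23, limma adjusted p = 0.00581). *MYF5*, an earlier factor of the same family, had 40.0 reads in the control MNP against 3 in the FNP, and 25.4 against 1.84 in *talpid2* (log2 ratios of -3.67, with a 95% counting interval of -6.0 to -2.02, and -3.70, with -6.68 to -1.55). Of the 12 calls, 7 held whichever library was left out. Summed over the 11 muscle genes with recovered reads, the scaled reads were 1883 and 1385 in the control and *talpid2* MNP, 295 and 250 in the FNP and 198 and 209 in the MXP, with *TNNT2* at 0 in the *talpid2* FNP. *DES*, *TNNC1* and *MYL4* were not called. *MYL4*, a myosin light chain of atrium and embryonic muscle, had an FNP minus MNP of 1.26 in control and 0.67 in *talpid2*.

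BMP signalling genes leaned to the FNP. Of 22 measured, 11 were called as higher in the FNP (beside 5.25% of all genes) and 1 as higher in the MNP, with a median of 0.67 in control and 0.73 in *talpid2*. Among ligands, *BMP4* had 424.9 recovered reads in the control FNP against 129.5 in the MNP, and 366.6 against 152.9 in *talpid2* (1.57 ± 0.13, limma adjusted p = 0.0125), and *BMP7* and *BMP2* differed by 0.97 ± 0.09 and 0.74 ± 0.08. Extracellular antagonists were called as well. *FST*, follistatin, had 325.0 reads against 43.4 in control and 232.2 against 29.2 in *talpid2* (3.03 ± 0.13, limma adjusted p = 0.00472), and *CHRDL1*, chordin-like 1, differed by 1.90 ± 0.09 (adjusted p = 0.00496 in limma). *BAMBI*, a membrane pseudoreceptor induced by BMP, differed by 1.25 ± 0.08 and *ID2*, a target gene, by 0.95 ± 0.08. *NBL1*, an antagonist, was the gene called as higher in the MNP, by -0.87 ± 0.13. *FST* and *CHRDL1* stayed called whichever library was left out, whereas *BMP4* lost its call without either FNP library (adjusted p up to 0.0678), *BAMBI* without either MNP library (0.066), and *BMP7* without the control FNP or either MNP library (0.0857). *BMP2*, *ID2* and *NBL1* lost theirs without any 1 of the FNP and MNP libraries (up to 0.12, 0.0725 and 0.184).

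Of 10 measured retinoic acid genes, 2 were called as higher in the FNP (beside 5.25% of all genes) and 3 as higher in the MNP (beside 4.91%). *ALDH1A3*, which makes retinoic acid, is given above, and *CYP26B1*, which degrades it, had 563.3 reads in the control FNP against 71.0 in the MNP and 448.2 against 85.8 in *talpid2* (2.77 ± 0.18, limma adjusted p = 0.00822). *ALDH1A2*, the synthase of mesoderm and mesenchyme, was highest in the MXP, at 1.94 and 2.0, and lower in the FNP than in the MNP by 0.96 ± 0.14 (limma adjusted p = 0.0357). *DHRS3*, a retinaldehyde reductase, and *RXRG*, a receptor, were lower in the FNP by 0.90 ± 0.13 and 0.71 ± 0.11. Of these MNP-side calls none held in all 6 leave-one-out fits, and *ALDH1A2* lost its call without any library but the *talpid2* FNP (adjusted p up to 0.182).

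WNT genes went both ways. Of 34 measured, 8 were called as higher in the FNP (beside 5.25% of all genes) and 5 as higher in the MNP (beside 4.91%), and the median was 0.02 in control and -0.06 in *talpid2*. The ligands *WNT16* and *WNT5A* and the secreted inhibitor *NOTUM* were higher in the FNP, by 1.94 ± 0.11, 1.34 ± 0.10 and 1.31 ± 0.15 (limma adjusted p 0.00652, 0.00955 and 0.0215). The ligand *WNT11*, the inhibitor *DKK4* and its coreceptor *KREMEN1* were higher in the MNP, with -1.15 ± 0.09, -1.20 ± 0.12 and -1.21 ± 0.09 (limma adjusted p 0.0104, 0.0179 and 0.0103). *WNT16* kept its call whichever library was left out. *WNT5A* and *WNT11* lost theirs without any 1 of the FNP and MNP libraries (adjusted p up to 0.0671 and 0.0681), *KREMEN1* without either MNP library (0.0719), and *NOTUM* and *DKK4* without either FNP library or the *talpid2* MNP (0.112 and 0.0997).

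Of 21 FGF genes, 5 were called as higher in the FNP (beside 5.25% of all genes) and none as higher in the MNP (beside 4.91%), with a median of 0.15 in control and 0.25 in *talpid2*. They are *FGF9* and *FGF13*, the receptor *FGFR2*, and *DUSP6* and *IL17RD*, feedback inhibitors of the pathway. *DUSP6* differed by 0.73 ± 0.06 (limma adjusted p = 0.0133) and *FGFR2* by 0.62 ± 0.07 (adjusted p = 0.0206 in limma). *FGF9* had 29.0 reads in the control FNP against 13.0 in the MNP and 28.9 against 5.72 in *talpid2*. On the MNP side lay *FGF16* and *FGF7*, at -1.74 and -1.41 in control and -4.11 and -0.81 in *talpid2*. Neither was called (limma adjusted p 0.0979 and 0.0618). None of the 5 calls held in all 6 leave-one-out fits, with adjusted p-values of up to 0.193 for *FGF13*. Of 14 Hedgehog genes, 4 were called as higher in the MNP (beside 4.91% of all genes), namely the coreceptors *GAS1* (-0.95 ± 0.07) and *CDON* (-0.42 ± 0.06), the ligand-release gene *DISP1* (-0.58 ± 0.10) and *OSR2* (-1.12 ± 0.12), a transcription factor of the palate and jaw. *SUFU*, an intracellular inhibitor, was called as higher in the FNP (0.63 ± 0.08). None of these calls held in all leave-one-out fits either, with adjusted p-values of up to 0.239 for *DISP1*. *PTCH1*, the receptor and a target, was not called, with 0.49 in control and 0.57 in *talpid2*.

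**Figure D3:**
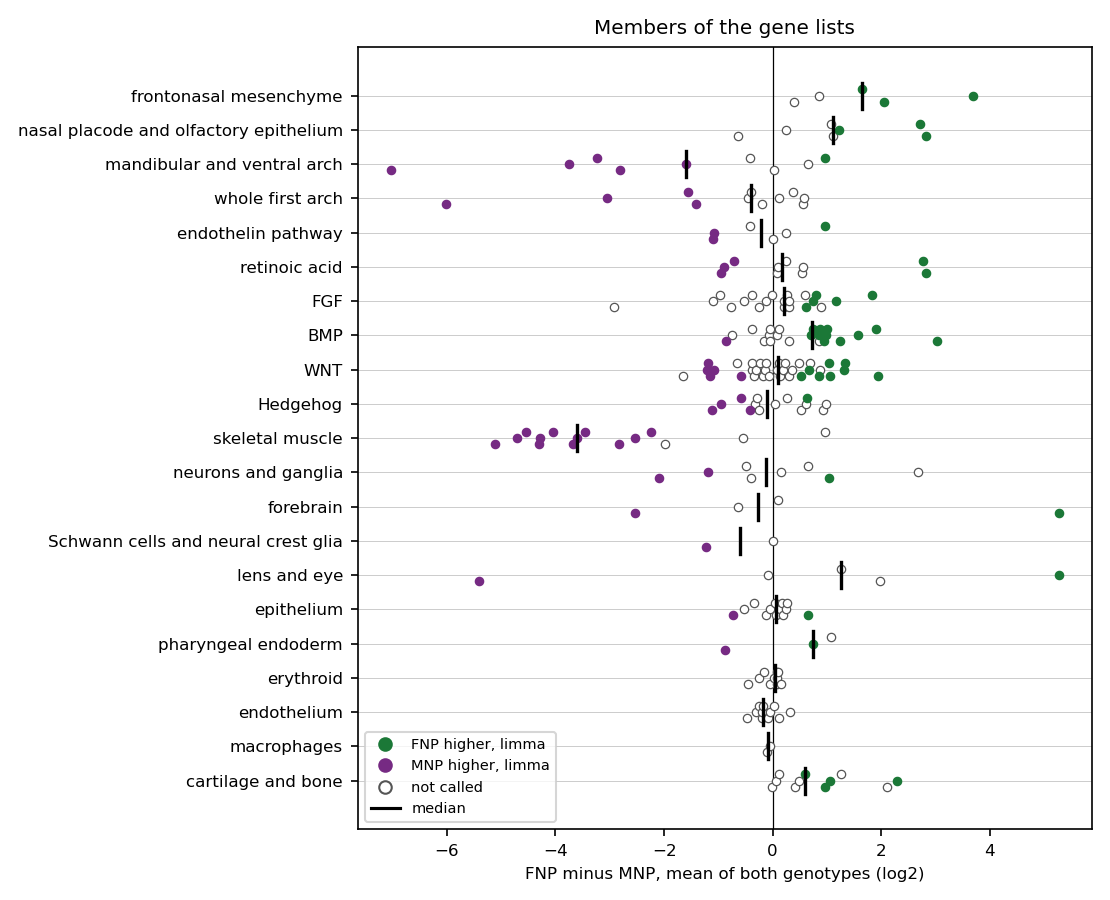
Each point is a measured member of a gene list, with the mean FNP minus MNP of both genotypes in log2 units on the x axis. Green and purple points were called by limma as higher in the FNP or the MNP, open points were not called, and the black bar is the list's median. Muscle genes lie on the MNP side, BMP genes mostly on the FNP side, and erythroid, endothelial and macrophage genes around 0. For the erythroid genes this mean averages out opposite medians, 0.33 in control and -0.31 in *talpid2*.

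Markers of other tissues gave fewer calls than the muscle list. No gene was called among 10 erythroid, 11 endothelial and 2 macrophage genes. The erythroid median was 0.33 in control and -0.31 in *talpid2*, opposite differences that the limma mean of both genotypes averages out. Over all genes 5.25% were called as higher in the FNP and 4.91% as higher in the MNP. Whether lists this short depart from these shares was not tested. Of 13 epithelial genes *CLDN1*, a tight junction gene, was called as higher in the FNP and *TFAP2C* as higher in the MNP. Forebrain and lens lists, with 4 and 5 measured genes, had 1 call in each direction, *SIX6* for the FNP in both and *EMX1* and *PITX3* for the MNP, and the 3 pharyngeal endoderm genes also had 1 in each. *CLDN1* and *TFAP2C* lost their calls without any 1 of the 6 libraries (adjusted p up to 0.168 and 0.158 in limma), and *EMX1* and *PITX3* in 4 of the 6 leave-one-out fits (up to 0.0963 and 0.122). Cartilage genes were called as higher in the FNP in 4 of 11 cases, beside 5.25% of all genes, and 1 of the 4 calls, that of *ACAN*, held whichever library was left out. *ACAN*, the proteoglycan of cartilage, had FNP levels of 2.17 and 2.41, MNP levels of -0.23 and 0.23 and MXP levels of -4.53 and -3.87 (2.29 ± 0.12, limma adjusted p = 0.00581), and its regulator *SOX9* differed by 0.97 ± 0.10 (adjusted p = 0.0194), a call that was lost without any library but the *talpid2* FNP (up to 0.12). Neuronal and glial genes lay on both sides. *GAP43*, of the neuronal list, had an FNP minus MNP of 2.84 in control and 2.50 in *talpid2*. It was not called (limma adjusted p = 0.133). The neurofilament gene *NEFM*, *STMN2* and the glial factor *SOX10* were called as higher in the MNP (-2.10 ± 0.22, -1.20 ± 0.16 and -1.23 ± 0.15) and the synaptic vesicle gene *SYT1* as higher in the FNP (1.03 ± 0.09), and none of these 4 calls held in all leave-one-out fits (adjusted p up to 0.146). The delta-crystallin *ASL1*, a lens gene in birds, had 0.29 in the control FNP and 2.92 in the *talpid2* FNP, against -0.29 and -0.44 in the MNP, and 4.15 in the *talpid2* MXP. HOX genes of later arches were not analysed here. The part of these tissues in the differences above was not tested.

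The MXP level of each shared gene was set beside those of the FNP and MNP, and for some genes, *ACAN* and *ALDH1A3* among them, it lay outside their range. Of the 207 genes higher in the FNP, the MXP level was nearer to the MNP on the log2 scale in both genotypes for 121, nearer to the FNP in both for 57, and different between genotypes for 29. Of the 259 genes higher in the MNP, the MXP was nearer to the MNP for 107, nearer to the FNP for 101, and different for 51. Set from 0 at the MNP level to 1 at the FNP level, the median MXP position was 0.26 in control and 0.29 in *talpid2* for the former group and 0.48 in both for the latter. These are descriptions with no test. Among the 15 genes with the largest FNP excess, *LIX1*, *GATA2*, *GATA3*, *DMBX1* and *ZPLD1* were the 5 with an MXP level nearer to that of the FNP.

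**Figure D4:**
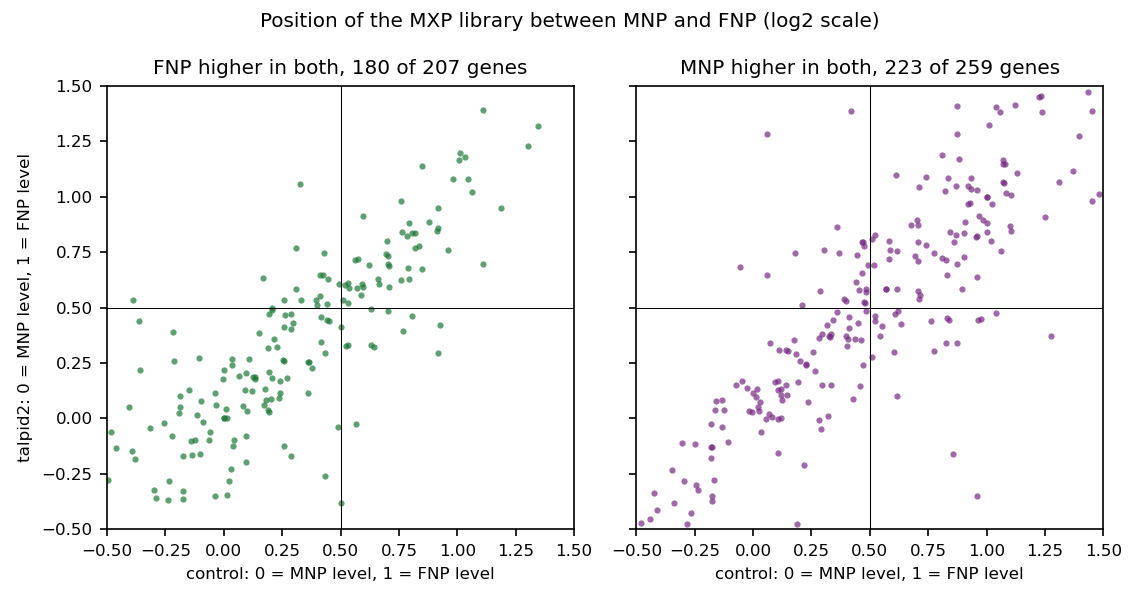
Position of the MXP level between the MNP (0) and the FNP (1) on the log2 scale, in control (x axis) and *talpid2* (y axis), for genes with FNP higher (left, 27 of 207 genes lie outside the axes) and with MNP higher (right, 36 of 259 lie outside). Genes with FNP higher gather below 0.5 on both axes, and those with MNP higher spread along the whole diagonal.

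A smaller number of genes differed between FNP and MNP in 1 genotype only. At least 2-fold apart in control and under 0.5 on the log2 scale in the same direction in *talpid2* were 97 genes (0.938% of all genes), and the reverse held for 118 (1.14%), with 12 genes in both sets because their difference turned over. Most of these genes were low, with a median of 12.4 and 16.3 reads in the highest of the 4 libraries, and 24 and 40 of them were small RNA genes, which make up 1.98% of all genes. Without small RNA genes, a count added after seeing the data, 73 and 78 were left. Whether a difference itself differed between the genotypes was tested on the 4829 genes with recovered reads by an exact conditional test of the 4 read numbers. It passed 88 genes after adjustment (1.82%). Of the 97 lost genes 85 had recovered reads and could be tested, and 5 passed. Of the 118 gained genes 101 could be tested, and 11 passed. The test compares these 4 libraries, not the genotypes, and its intervals cover counting error only.

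Of the 5 genes that lost the difference and passed, 3 carry a symbol. *FGF8*, a ligand of the facial ectoderm and nasal pits, had 166.3 reads in the control FNP against 77.1 in the MNP, and 76.9 against 81.4 in *talpid2*. The FNP excess of 1.18 (95% counting interval 0.78 to 1.59) in control was thus 0.01 (-0.45 to 0.48) in *talpid2*, a change of -1.17 (-1.79 to -0.54; exact conditional test, adjusted p = 0.0174). On the authors' log2 scale *FGF8* had 0.56 in the control FNP and -0.28 in the *talpid2* FNP, and -0.62 and -0.29 in the MNP libraries, so the FNP level was lower and the MNP level higher in *talpid2*. *KHDRBS2*, an RNA-binding splicing regulator, had 30.6 reads in the control FNP against 104.8 in the MNP, and 37.8 against 42.6 in *talpid2* (change 1.62, 0.68 to 2.52, exact adjusted p = 0.0276). *PLCL1*, a phospholipase C-like protein, went from -1.09 to 0.06 (exact adjusted p = 0.0237). For *PLCL1*, with 64 to 142.7 reads in the FNP and MNP libraries, just 1 library fell inside the limits that the authors set. *KHDRBS2* had log2 levels of -1.18 and -0.61 in the control and *talpid2* FNP libraries and 0.52 and -0.52 in those of the MNP, and *PLCL1* had -0.27 and 0.33 against 0.82 and 0.27, so for both genes the FNP level was higher and the MNP level lower in *talpid2*. For these 3 genes the change of a single prominence between genotypes was not tested. That of *FGF8* in the MNP rests on 77.1 and 81.4 reads, and that of *KHDRBS2* in the FNP on 30.6 and 37.8.

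Of the 11 genes that gained a difference and passed, 10 carry a symbol, and the 8 largest changes follow. *PPM1H*, a protein phosphatase, had 61.3 and 61.4 reads in the control FNP and MNP, and 93.4 against 17.2 in *talpid2*, a change of 2.46 (1.51 to 3.47; exact conditional test, adjusted p = 1.20e-05). *SPRY4*, a feedback inhibitor of FGF signalling, had 47.4 and 46.8 reads in control and 12.2 against 52.6 in *talpid2*, where the FNP is the low library (change -2.11, -3.33 to -0.98, exact adjusted p = 0.0109). *ADAMTS15*, a matrix protease, turned from 0.72 to -1.45 (exact adjusted p = 2.76e-05). For *ADAMTS15* and *HES5* just 1 library each fell inside the limits that the authors set. *HES5*, a target of Notch signalling, the matrix gene *EFEMP1* and the vesicle GTPase gene *RAB26* were level in control, at 0.14, 0.25 and -0.10, and lower in the FNP in *talpid2*, at -1.22, -1.02 and -1.11, with exact adjusted p-values of 0.0181, 0.00131 and 0.0239. *ZNF750*, a factor of epidermal differentiation in human skin, went from -0.28 to 1.09 (exact adjusted p = 0.000154) and *CHN2*, a GTPase-activating protein, from 0.16 to 1.10 (exact adjusted p = 0.0188).

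**Figure D5:**
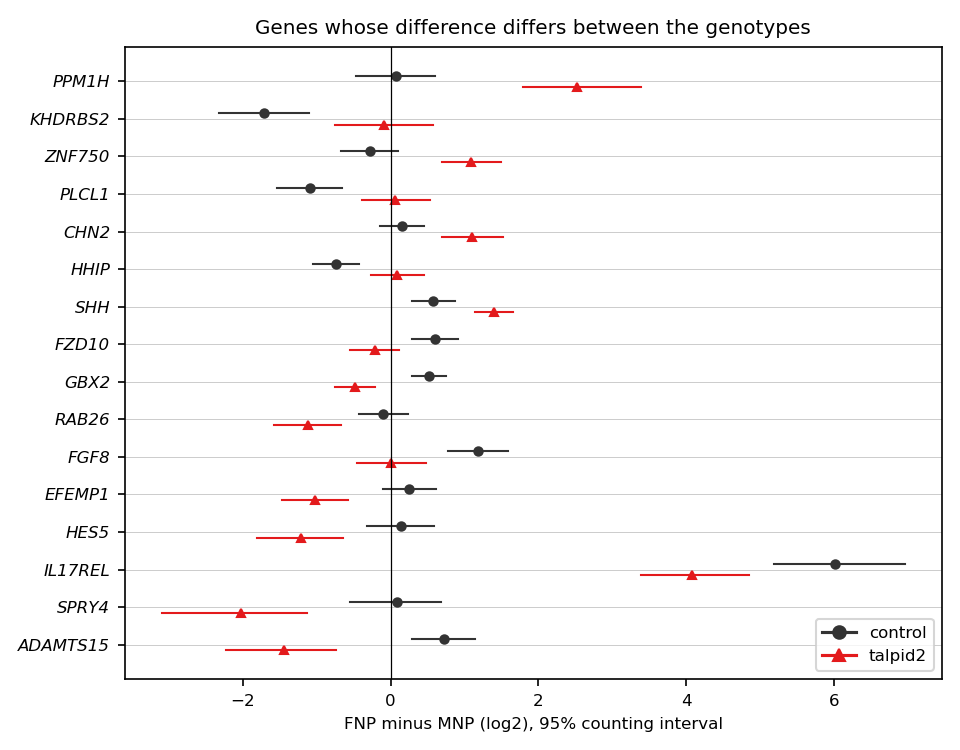
FNP minus MNP (x axis, log2) in control (black circles) and *talpid2* (red triangles) with 95% counting intervals, for the 16 named genes that passed the exact conditional test. The intervals of *FGF8*, *PLCL1*, *KHDRBS2*, *HHIP* and *FZD10* cover 0 in *talpid2* only, those of *PPM1H*, *SPRY4*, *CHN2*, *ZNF750*, *HES5*, *EFEMP1* and *RAB26* in control only, and *IL17REL* stays above 0 in both.

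Within the gene lists, *GBX2*, *SHH*, *HHIP* and *FZD10* also passed without being classed as lost or gained. *GBX2*, *HHIP* and *FZD10* were under 2-fold in both genotypes. *SHH* was over 2-fold in *talpid2*, but its control difference was not under the limit of 0.5. *GBX2*, a homeobox gene of the mandibular arch, had 372.5 reads in the control FNP against 273.3 in the MNP and 192.8 against 287.2 in *talpid2*, so its difference turned from 0.52 to -0.49 (change -1.003, -1.36 to -0.64, exact adjusted p = 1.03e-05). *SHH*, the Hedgehog ligand (chromosome 2, 7684550 to 8084907), had 239.7 reads against 169.0 in control and 425.0 against 172.0 in *talpid2*, and its FNP excess grew from 0.57 to 1.39 (change 0.82, 0.42 to 1.21, exact adjusted p = 0.00535). Its listed interval holds other genes, so reads cannot be assigned with certainty where counting ignored the strand. *HHIP*, a Hedgehog-binding inhibitor, went from -0.74 to 0.09 (exact adjusted p = 0.0345), and *FZD10*, a WNT receptor, from 0.60 to -0.22 (exact adjusted p = 0.0307). *IL17REL*, among the genes highest in the FNP, fell in excess from 6.01 to 4.08 (exact adjusted p = 0.043). The 5 haemoglobin genes measured had FNP minus MNP values between 0.44 and 0.51 in control and between -0.38 and -0.28 in *talpid2*, without recovered reads for a test, and their part in these changes was not tested.

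Genes without recovered reads have no test of the difference between genotypes. Among those with a symbol and within the limits in all 6 libraries, the lowest changes were of *MRPL36*, a mitochondrial ribosomal protein (0.80 in control and -2.23 in *talpid2*), *RAB11FIP4*, an endosomal adaptor (2.23 and 0.80), and *EGLN3*, a prolyl hydroxylase of the oxygen response (1.27 and 0.17). The highest were of *SPON2*, a matrix protein (-1.70 and -0.02), *MAB21L2*, a gene of eye and arch development (-3.70 and -2.54), and *SCUBE1*, a secreted glycoprotein (-0.22 and 0.90). *MAB21L2* was the only one of the 6 that limma called (-3.12 ± 0.32, adjusted p = 0.0177), and it lost the call without any 1 of the MXP and MNP libraries (up to 0.0851).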

How the data were processed

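RNA of pooled facial prominences was processed with the TruSeq methods of Illumina and the Ovation V2 system of Nugen, and the study's methods name GeneSpring 12.5 and an Ensembl chick genome whose assembly is not given in the sources used here. The authors deposited 1 table of log2 values for 10337 genes in 6 libraries. In these values each library had been scaled, values under 1 set to 1, and the median of each gene subtracted. Limits of 3.0 to 8607.81, on a scale of their own, mark values within range in each library, and 9128 genes were within them in all 6. The aligner, the counting of multiply mapped reads and the use of strand are not given in the sources used here.

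FNP minus MNP was taken on the log2 scale within each genotype. The deposited log2 values step by whole bases of 50-base reads, so reads were recovered for genes of up to 800 reads in the highest library. They are sums of bases divided by 50 and need not be whole. Between 0.232% and 0.319% of genes were also solved with wrong steps. Recovered reads summed to between 1014722 and 1276336 a library. The scaling of the authors was kept. limma 3.58.1 (R 4.3.3) fitted prominence and genotype to all 6 libraries with Benjamini-Hochberg adjustment, and its error holds any genotype-by-prominence difference. On recovered reads, the Audic-Claverie test compared FNP and MNP libraries in each genotype, and an exact conditional test compared the differences, both two-sided with Benjamini-Hochberg adjustment (Python 3.11.15, scipy 1.17.1). These tests and 95% intervals cover counting error only, and PCR reads are not independent molecules. A library at the floor was counted as 0 reads, though in the control FNP and MNP the floor can hold 1 read.

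A gene was called shared at 2-fold or more in the same direction in both genotypes, and lost or gained at 2-fold in 1 genotype and under 0.5 in that direction in the other. Named genes are *ALX1*, *ALX4*, *HAND2*, *DLX5* and the members of 22 lists, the 15 largest shared differences each way among genes with a symbol within limits in at least 2 libraries, up to 8 lost and 8 gained genes passing the exact test, and 3 each way without recovered reads. Members, lists and rules were chosen with earlier results of these data known. The settings of the recovery, some symbols given by hand and the count without small RNA genes were chosen after the data were seen. Symbols come from the table and, for 7479 of 8274 Entrez identifiers, from RefSeq names. On simulated data with known changes, limma called 78.6% of genes changed 2-fold and 87.2% of those changed 4-fold, with 2.35% of calls unchanged genes. The exact conditional test called 87% of 200 genes whose difference changed 4-fold, with 2.79% of calls unchanged genes, and the recovery gave the right reads for 97.4% of 4797 genes. The limma simulation changed 200 genes, with normal errors and no genotype or MXP effect. That of the exact conditional test drew counting error only. These rates hold for those settings and are not error rates of the data. Some members of the lists are not reported here by name.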

Additional observations from a re-analysis of the deposited data

Results flagged for a closer look

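In 16 of the genes named here the difference between FNP and MNP itself differed between the genotypes in the exact conditional test. Benjamini-Hochberg adjustment was over the 4829 genes with recovered reads, of which 88 passed (1.82%). The lost and gained genes among the 16 were picked by passing this test, so 16 is no measure of how often genes pass. The values are changes in FNP minus MNP from control to *talpid2* on the log2 scale, each from 4 libraries. Toward the MNP they were -2.16 for *ADAMTS15*, -2.11 for *SPRY4*, -1.93 for *IL17REL*, -1.36 for *HES5*, -1.27 for *EFEMP1*, -1.17 for *FGF8*, -1.01 for *RAB26*, -1.003 for *GBX2* and -0.81 for *FZD10*. Toward the FNP they were 0.82 for *SHH*, 0.83 for *HHIP*, 0.94 for *CHN2*, 1.15 for *PLCL1*, 1.37 for *ZNF750*, 1.62 for *KHDRBS2* and 2.46 for *PPM1H*. Exact adjusted p-values ran from 1.03e-05 for *GBX2* to 0.043 for *IL17REL*. *ADAMTS15*, *HES5* and *PLCL1* each had just 1 library inside the authors' limits. *IL17REL* had 2 such libraries, and the rest of these genes had at least 4. With 1 library per group, whether other embryos would show these changes was not tested.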

How the results depend on the processing

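The count of limma (1051 calls) was 576 with the FNP and MNP libraries alone, 212 to 576 with 1 library left out in turn, and 7106 with *GAPDH* as the reference gene, where 403 were higher in the FNP and 6703 in the MNP. Without the genotype term, which pairs FNP and MNP within a genotype, 913 genes were called, 812 of them also called with it. With 1 library per genotype and prominence and no replicate numbers in the labels, pairing was possible by this genotype term only. Centring on the median of all genes gave 1059 calls. The shared, lost and gained counts (466, 97 and 118) were 913, 277 and 278 at 1.5-fold, 252, 37 and 55 at 3-fold, and 167, 18 and 20 within the limits in all 6 libraries. The gained count was 78 without small RNA genes. With *GAPDH* as the reference, 137 shared genes were higher in the FNP and 420 in the MNP, the Audic-Claverie test passed 3256 genes in control (1177 before) and 2555 in *talpid2* (1096 before), and the exact conditional test passed 119 against 88. Without adjustment the exact conditional test passed 515. That scaling subtracts 0.38 from every mean difference, so every difference between 0 and 0.38 changes sign by construction. Of the named and listed genes, *SMO*, *RARB*, *FABP7*, *KDR*, *SMAD6*, *FURIN* and *MSX2* did so and passed limma under that scaling, at -0.34, -0.31, -0.37, -0.35, -0.29, -0.38 and -0.27. The cause of the other changes was not tested. Genes of fewer than about 20 reads allow only wide intervals. For genes without recovered reads, those above 800 reads among them, counting error was not estimated.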
